A study of Mus musculus with 45 samples.

Results

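CT26, a line grown from a chemically induced colon carcinoma of a BALB/c mouse, was cultured for 48 hours with DMSO, the solvent control, or with an agent given in the labels under the bare name stk. The comparison holds 6 RNA-seq libraries, 3 with DMSO and 3 with stk, out of 45 labelled samples of which 30 have a column in the deposited tables. They were chosen by the line and treatment in the labels. The labels list 6 CT26 samples with stk, and 3 of them have a column. Expression of 55335 genes was given as FPKM, a fragment count scaled by transcript length and by library size that allows levels of different genes to be set side by side. Both groups carry the genotype label WT and share 1 batch label. What stk is, its dose, and whether the replicates came from separate cultures are not stated in the sources used here, so a p-value measures only the spread between these libraries.

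Parallel groups in the series were used only to set values beside those of CT26 with stk. Hepa1-6, a mouse liver line, had 3 libraries with DMSO and 3 with stk for 48 hours. CT26 lines with a hairpin against luciferase (shLucif), and lines with a Soat1 hairpin named sh1, sh2 or sh3, 3 libraries each, were collected 24 hours after seeding in a separate experiment with its own table and batch label. The title of the study names SOAT1, 20(S)-hydroxycholesterol and its receptor GPR132.

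SOAT1 sits in the endoplasmic reticulum and joins free cholesterol to a fatty acid, so that it can be stored in lipid droplets. Cells sense sterols through a pair of transcription programs. SREBP2, held back when sterols are plentiful, switches on the enzymes that make cholesterol. The LXR receptors are activated by oxysterols and switch on exporters such as ABCA1.

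The 6 libraries were alike in scale. FPKM sums ran from 326989 to 335067 and between 11228 and 11338 genes reached 1 FPKM. Read totals are unknown. The Pearson correlation of log2(FPKM + 1) across genes was 0.989 to 0.991 within a group and 0.986 to 0.988 between groups. CT26 had little RNA of epithelial markers: none of the 7 listed was testable, and their summed level was 0.630 to 0.785 FPKM in every library. Of the 7 intestinal markers Krt20 alone was testable, at 24.5, 28.6 and 26.4 FPKM with DMSO. Mesenchymal markers were abundant, with 8 of 9 testable and Vim at 496, 505 and 499 FPKM with DMSO. Leukocyte markers summed to 0.385 to 1.05 FPKM and endothelial markers to 0.351 to 0.522 FPKM, with Cd3e and Adgre1 at 0 in all 6 libraries. Of the hepatocyte markers, Afp was measured at 4.09 to 5.24 FPKM and Alb was at 0.

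Few genes passed the test between stk and DMSO in CT26, and most of those that passed fell. Among 11358 genes tested with limma, 85 (0.748%) passed an adjusted p of 0.05 by the Benjamini-Hochberg method and are called changed here. The 15 that rose (0.132%) included 8 protein-coding genes, led by the transcription factor gene Nfix, and the 70 that fell (0.616%) included 25, led by the cholesterol exporter gene Abca1. The other 52 called genes were 43 pseudogenes (5 rose and 38 fell), 6 small RNA genes that all fell and 3 long non-coding RNA genes (2 rose and 1 fell). Of the 85, 6 reached 1 FPKM in the libraries of 1 group only and entered the test through the group where they are high: Usp27x, Krtap1-5, Gm25894, Gm10774, Dnm3os and AC127331.2. Only 7 called genes passed a 2-fold change on the log2(FPKM + 1) scale, and the median absolute change over all tested genes was 0.07 on that log2 scale. An unadjusted p under 0.05 was reached by 1656 genes. As a background for the lists that follow, 52.1% of all tested genes had a lower and 47.9% a higher mean with stk; every stk library lay below every DMSO library in 12.0% and above in 9.42%. The split of calls depended on the scaling: quantile normalization gave 32 higher and 74 lower, removing a trend with transcript length gave 20 and 30, and fitting all labelled libraries of the table together gave 55 and 149, beside 15 and 70. The count also depended on single libraries. It was 21 without DMSO replicate 1, 2 without DMSO replicate 2, 9 without DMSO replicate 3, 12 without stk replicate 1, 21 without stk replicate 2 and 92 without stk replicate 3.

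**Figure D1:**
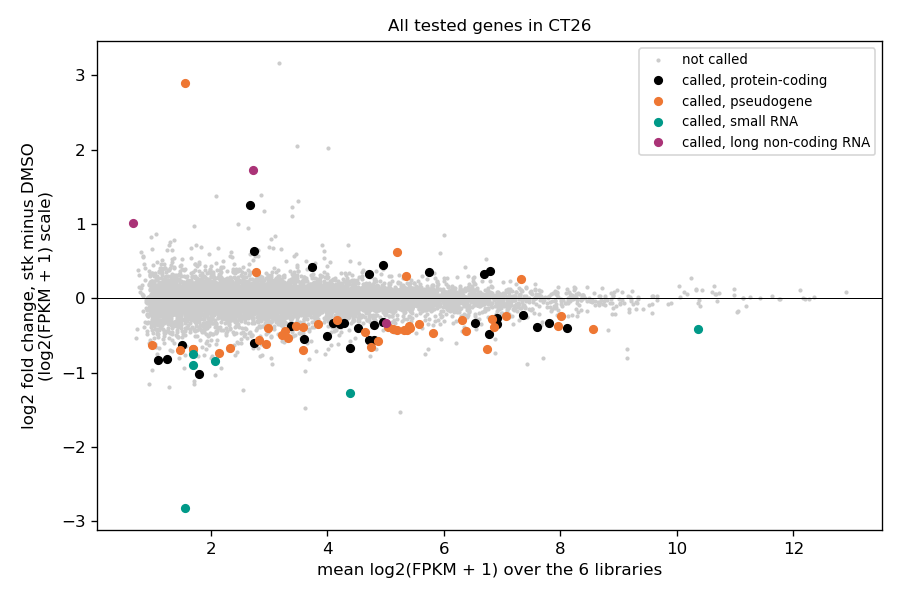
Each point is 1 of the 11358 genes tested in CT26, with its mean log2(FPKM + 1) over the 6 libraries on the x axis and its log2 fold change (stk minus DMSO) on the y axis. The 85 called genes are coloured by class; most lie below 0, and the largest changes among them belong to non-coding genes of low level.

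Nfix, which encodes a DNA-binding protein of the nuclear factor I family (GRCm38, chr8:84699876-84800344, minus strand), had the largest rise of any protein-coding gene. It stood at 2.96, 3.21 and 3.18 FPKM with DMSO and at 8.77, 8.83 and 8.86 FPKM with stk. The groups were far apart and the libraries within each nearly equal. G430095P16Rik, which Nfix overlaps on the other strand, was at means of 2.42 and 2.58 FPKM. The log2 fold change of Nfix was 1.25 ± 0.05 (SE, limma, adjusted p = 0.00109). Nfix was called in all 6 fits that left out 1 library and in all 12 other alternatives. Within single groups elsewhere in the series, given below for Hepa1-6 with DMSO and for sh1 and sh3, Nfix was uneven. Fits within these 6 libraries cannot address such unevenness of Nfix. Its relatives did not pass the test: Nfic stood at 29.0, 28.3 and 29.5 FPKM with DMSO and 30.6, 32.2 and 29.5 FPKM with stk. Nfib, at 2.78, 2.96 and 3.13 against 3.66, 2.87 and 3.24 FPKM, overlapped between the groups. Nfia stayed under 1 FPKM and was not testable.

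Ikbkg, which encodes NEMO, the regulatory subunit of the IKK kinase complex upstream of NF-kB, rose from 4.09, 4.57 and 4.48 FPKM to 7.42, 7.72 and 6.84 FPKM. Its log2 fold change was 0.63 (adjusted p = 0.0190), and it was called in 1 of the 6 fits that left out a library. Ikbkg overlaps G6pdx, on the other strand, whose means were 34.1 and 34.0 FPKM. Whether reads were assigned by strand is not stated in the sources used here. Of 21 testable genes of the IKK and NF-kB list, Ikbkg was the 1 called. The kinase genes of the complex were level: Chuk stood at 21.6, 20.1 and 21.7 FPKM with DMSO and 19.5, 21.7 and 21.2 with stk, and Ikbkb at 1.60, 1.58 and 1.65 against 1.69, 1.59 and 1.53. Nfkbie, an inhibitor of NF-kB, was the nearest miss of the list, at 1.67, 2.31 and 2.44 against 0.882, 0.954 and 0.936 FPKM (log2 fold change -0.70, adjusted p = 0.0530).

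Other rises were smaller and belonged to well expressed genes. Cdv3 went from 25.4, 25.7 and 25.3 FPKM to 34.5, 36.3 and 34.8 FPKM (log2 fold change 0.45, adjusted p = 0.0107). It was called in 4 of the 6 leave-one-out fits. Phf13, whose product reads methylated histone H3, went from 11.1, 10.8 and 9.92 to 14.1, 14.5 and 14.7 FPKM (log2 fold change 0.42). Edf1, which encodes a ribosome-associated factor, went from 49.2, 44.8 and 45.2 to 58.5, 59.7 and 59.8 FPKM (log2 fold change 0.35). Neither pair of groups overlapped, and the values with stk spanned less than 2 FPKM for either gene.

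A pair of the rises concerned the cytoskeleton and matrix. Fscn1, the gene of the actin-bundling protein fascin, went from 92.7, 95.9 and 101 FPKM to 131, 119 and 125 FPKM (log2 fold change 0.37, adjusted p = 0.0309). Fn1, the gene of fibronectin, went from 88.6, 97.0 and 89.4 to 115, 119 and 113 FPKM (log2 fold change 0.33, adjusted p = 0.0328). Neither was called in a fit that left out a library or in the fit of protein-coding genes only. Each was alone in its list. Of 27 testable actin and cytoskeleton genes, 19 had a higher mean and 1 was called, with a median log2 fold change of 0.06. Of 23 testable fibronectin, integrin and matrix genes, 15 had a lower mean and the median was -0.05. Thbs1, which encodes the matrix protein thrombospondin 1, stood at 40.4, 35.5 and 37.7 with DMSO and 30.4, 29.3 and 30.7 FPKM with stk, just short of the threshold (adjusted p = 0.0564).

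Glul, the gene of glutamine synthetase, rose from 23.1, 22.6 and 21.5 FPKM to 28.9, 28.9 and 26.9 FPKM (log2 fold change 0.32, adjusted p = 0.0448). It overlaps the microRNA gene Mir8114 on the same strand, at 0.0964, 21.6 and 19.9 against 30.9, 33.3 and 30.4 FPKM (not called). Glul was the 1 called member of 17 testable genes of glutamine and glutamate metabolism, of which 8 had a higher and 9 a lower mean. Its call was lost with the length trend removed and among protein-coding genes only.

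**Figure D2:**
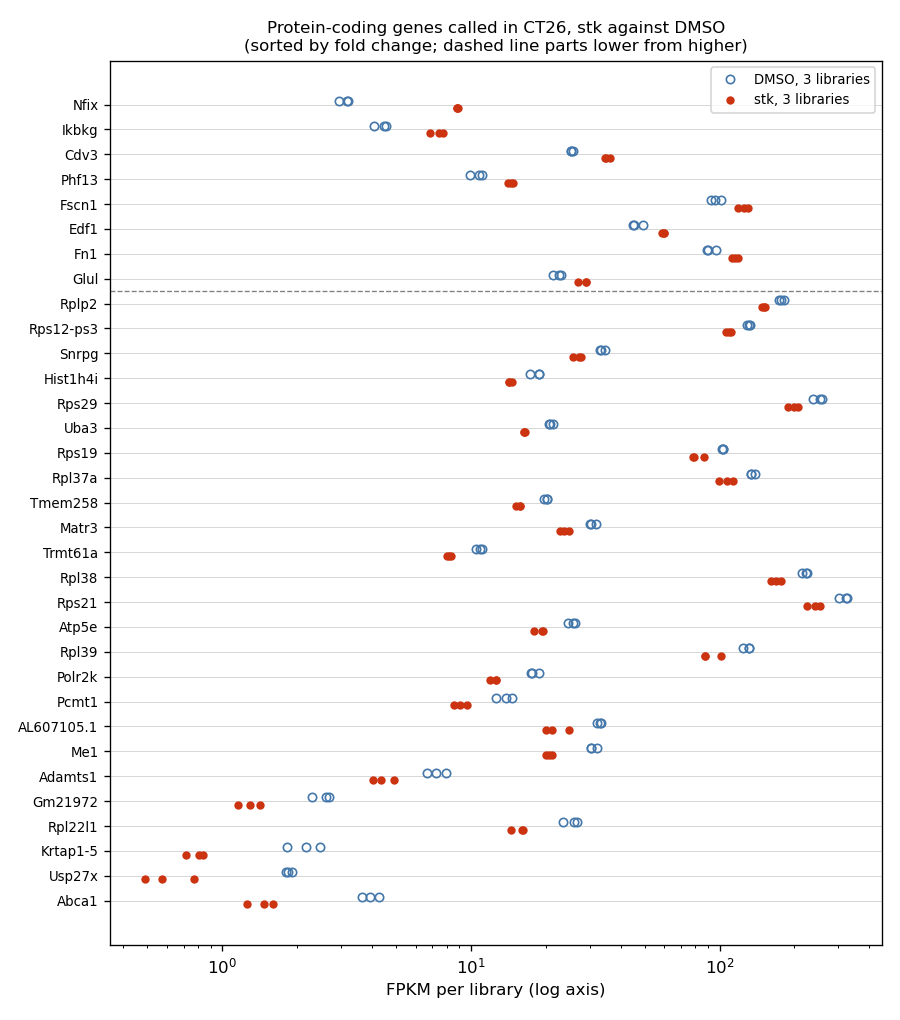
The 33 protein-coding genes called in CT26 are listed from the largest rise (top) to the largest fall (bottom), with FPKM of each library on a log axis. Open circles are the 3 DMSO libraries and filled circles the 3 stk libraries; the 8 genes above the dashed line rose, the 25 below it fell, and in every row the groups are apart.

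Abca1, which moves cholesterol out of the cell onto apolipoproteins, had the largest fall of a protein-coding gene (chr4:53030787-53159895, minus strand). Its libraries held 4.25, 3.94 and 3.65 FPKM with DMSO and 1.48, 1.26 and 1.59 FPKM with stk. The level with stk was 36.6% of that with DMSO, with a log2 fold change of -1.02 ± 0.08 (SE, limma, adjusted p = 0.0113). It was called in 4 of the 6 fits that left out a library. Of 9 testable members of the LXR list, Abca1 included, 4 had a higher and 5 a lower mean, and Abca1 was the 1 called. Apoe, the gene of a cholesterol carrier, had 0.950, 1.26 and 1.22 against 1.73, 1.92 and 2.10 FPKM, higher in every stk library (log2 fold change 0.45, adjusted p = 0.0937). Lpcat3, which remodels phospholipids, was lower in every stk library, at 15.6, 15.4 and 16.7 against 14.1, 11.7 and 13.5 FPKM (adjusted p = 0.193). Srebf1 and Mylip, both LXR targets, had log2 changes of -0.23 and -0.08 (adjusted p = 0.396 and 0.721). The receptor gene Nr1h2 was measured at 12.0, 13.8 and 12.1 against 13.2, 13.7 and 14.0 FPKM. Nr1h3, the other LXR gene, and the exporter gene Abcg1 stayed under 0.1 FPKM in every library of both groups.

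Me1 encodes the cytosolic malic enzyme, which makes NADPH for fatty acid synthesis (chr9:86581371-86695953, minus strand). It fell from 30.4, 30.5 and 32.0 FPKM to 21.1, 20.0 and 20.7 FPKM. The log2 fold change was -0.57 ± 0.04 (SE, limma, adjusted p = 0.00845), and 5 of the 6 leave-one-out fits called it. Among 15 testable NADPH-producing enzymes it was the 1 called. G6pdx, the entry enzyme of the pentose phosphate pathway, had 34.6, 33.0 and 34.5 against 35.4, 31.6 and 34.9 FPKM. Idh1 stood at 10.25, 10.08 and 9.70 against 10.02, 6.05 and 9.84 FPKM, low in stk replicate 2 alone.

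Adamts1, a secreted metalloproteinase gene, fell from 7.22, 6.64 and 7.96 to 4.36, 4.04 and 4.91 FPKM (log2 fold change -0.61, adjusted p = 0.0410). It was the 1 called among 12 testable matrix proteases. That call was lost with the length trend removed and among protein-coding genes only. Usp27x, a deubiquitinase gene, was at 1.83, 1.81 and 1.91 FPKM with DMSO and 0.491, 0.573 and 0.771 FPKM with stk (log2 fold change -0.83). Krtap1-5, a keratin-associated protein gene, was at 2.47, 1.82 and 2.18 against 0.837, 0.809 and 0.713 FPKM (log2 fold change -0.82). Both passed the filter of 1 FPKM only through the DMSO libraries, where they are high, so their calls are no support. With no filter on low values limma gave adjusted p = 0.0942 for Usp27x and 0.115 for Krtap1-5. Usp27x held both levels within other groups too, such as 1.90, 2.58 and 0.459 FPKM in Hepa1-6 with DMSO and 1.68, 0.518 and 0.476 FPKM with sh1. These low levels make the log2(FPKM + 1) scale understate the change: the stk means were 33.0% and 36.5% of the DMSO means for Usp27x and Krtap1-5.

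Further protein-coding genes fell. Pcmt1, which encodes a repair enzyme for damaged aspartyl residues, went from 13.9, 14.6 and 12.6 to 9.01, 9.63 and 8.53 FPKM. It overlaps Nup43 on the other strand, which was at means of 12.0 and 12.1 FPKM. Gm21972 went from 2.62, 2.68 and 2.29 to 1.29, 1.42 and 1.16 FPKM, and AL607105.1 from 33.2, 32.3 and 33.1 to 20.1, 21.2 and 24.7 FPKM. Trmt61a, Matr3, Tmem258, Uba3 and Hist1h4i fell by 0.33 to 0.37 on the log2 scale. Trmt61a encodes the catalytic subunit of a tRNA methyltransferase, Matr3 an RNA-binding protein of the nuclear matrix, Tmem258 a subunit of the oligosaccharyltransferase, Uba3 the catalytic subunit of the NEDD8-activating enzyme and Hist1h4i a histone. Uba3 stood at 21.3, 20.9 and 20.7 against 16.6, 16.4 and 16.3 FPKM (log2 fold change -0.33, adjusted p = 0.0190). In all, 15 of the 33 called protein-coding genes overlap another annotated gene, 11 of them a gene of at least 1 FPKM.

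Several genes that fell encode small subunits of large complexes. Of 79 cytosolic ribosomal protein genes, all testable, 68 had a lower mean with stk and 7 were called: Rpl39, Rps21, Rpl38, Rpl37a, Rps19, Rps29 and Rplp2. Rps12-ps3, annotated as protein-coding but named as a pseudogene of Rps12, fell by 0.26 as well. The 7 log2 fold changes ran from -0.48 for Rpl39 to -0.23 for Rplp2. The median over the 79 genes was -0.09, beside -0.01 over all tested genes. Without stk replicate 2 the median was -0.06 and 59 genes had a lower mean. In 40 of the 79 genes every stk library lay below every DMSO library, beside 12.0% of all tested genes. Stk replicate 2 was the lowest of the 6 libraries in 57 of the 79. Rpl39 showed the pattern at 131, 124 and 131 FPKM with DMSO and 87.8, 87.0 and 101 FPKM with stk. Rpl38 stood at 222, 215 and 224 against 160, 169 and 177 FPKM. Rps28, at 54.5, 49.6 and 55.5 against 35.5, 36.5 and 42.2 FPKM, missed the threshold at an adjusted p of 0.0549. At the other end Rpl27 was at 234, 227 and 242 against 265, 250 and 268 FPKM, higher in every stk library without being called (adjusted p = 0.157).

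Ribosomal protein paralogs, variants that can stand in for the usual subunit, were lower too. All 5 testable members lay lower in every stk library than in any DMSO library, beside 12.0% of all tested genes. Their median exon length was 1353 bases, and the share was 19.0% over protein-coding genes from 1000 to 1500 bases. Rpl22l1, the paralog of Rpl22, was the 1 called: it fell from 26.7, 23.6 and 25.9 to 14.5, 16.1 and 16.3 FPKM (log2 fold change -0.67, adjusted p = 0.0190). Rps27l had 176, 166 and 178 against 142, 150 and 131 FPKM (adjusted p = 0.0690).

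Subunits of other machines gave 1 call per list. Polr2k, which encodes a subunit shared by the RNA polymerases, fell from 17.5, 17.7 and 18.7 to 12.6, 12.6 and 11.9 FPKM (log2 fold change -0.50, adjusted p = 0.0170). The 12 other subunit genes were not called, and Polr2a, the catalytic subunit gene of polymerase II, was level at 39.1, 39.5 and 40.4 against 40.6, 42.2 and 40.0 FPKM. Of 75 nuclear genes of the respiratory chain, 62 had a lower mean and Atp5e, a subunit gene of ATP synthase, was called at 25.7, 24.5 and 26.1 against 17.9, 19.5 and 19.4 FPKM. The median of these 75 was -0.07, and -0.12 without stk replicate 3. Cox7a2 stood at 74.4, 73.1 and 73.7 against 43.8, 58.2 and 49.6 FPKM (adjusted p = 0.0627). Of 15 Sm and LSm genes, whose products form rings on spliceosomal RNA, 14 had a lower mean and Snrpg was called at 34.7, 33.3 and 33.2 against 25.7, 27.3 and 27.8 FPKM. The 13 mRNAs encoded by mitochondrial DNA gave no call: their median log2 change was 0.02, and mt-Nd3, with the smallest p among the lower ones, had 505, 480 and 553 against 444, 426 and 454 FPKM.

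Gene length moved with these falls. Among protein-coding genes, the median log2 fold change was -0.10 for the 39 with under 600 bases of annotated exon and -0.09 for the 174 from 600 to 1000 bases. It was -0.04, -0.02, 0.00, 0.01 and 0.01 in the bins that follow, up to genes of at least 10000 bases. Called falls in the bins under 1500 bases came to 11 of 633 genes, beside 25 of 9851 tested protein-coding genes of all lengths. Of the 11, 5 came from the lists of ribosomal proteins, their paralogs, respiratory chain genes and Sm and LSm genes. Under 1500 bases, the 65 genes of those lists had a median of -0.12 and 62 were lower, and the 568 other genes had a median of -0.05 and 359 were lower. With a length trend removed from each library, the ribosomal protein median was -0.07 and 5 genes of that list were called. Quantile normalization gave a median of -0.04, and testing protein-coding genes only left 1 call in the list. The call of Snrpg was lost with length removed and among protein-coding genes only (limma, adjusted p = 0.0573 and 0.0623), and that of Atp5e among protein-coding genes only (adjusted p = 0.0554). For the mitochondrially encoded mRNAs, removing the length trend gave a median of 0.09, with 1 gene lower and 1 call. The part of length in the result was not tested further.

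Pseudogenes, nearly all of them the processed kind that are intronless copies of mRNAs, made up the largest class of calls. All 38 that fell had a protein-coding transcript that matched at least 80% of their length with at least 90% identity, and for 30 it encoded a ribosomal protein. The median identity was 99.2%. The pseudogenes had a median log2 fold change of -0.43, and their closest coding genes one of -0.09, each counted once per pseudogene. These pseudogenes were picked by their calls and the closest genes were not, so the medians cannot be compared. Over all 925 tested pseudogenes the median was -0.09. The closest genes were 31 different ones, of which 27 were lower and 3 were called. The values of a pair are therefore not independent where reads match both copies, and how such reads were shared is not stated in the sources used here. Rps19-ps1 and Rps19-ps2 held identical values in the 6 CT26 libraries with DMSO or stk. The pairs below each show 1 place where a called pseudogene differs from its closest coding gene. Each is written 5′ to 3′ in 25 bases of coding sequence from GENCODE transcripts on GRCm38, with the base that differs in capitals. Over the whole alignment, Rpl39-ps and Rpl39 differ at 1 of 151 bases, and Rps19-ps1 and Rps19 at 8 of 438. Gm10774 was chosen as the called pseudogene with the highest log2 fold change, and the other 2 after their values were seen, because their closest gene was itself called.
Gm10774, chr2:126709464-126709488, minus strand: ctgctgcaggccAagtacacggagg
Polr2l, chr7:141475029-141475053, minus strand: ctgctgcaggccGagtacacggagg
Rpl39-ps, chr15:102635122-102635146, plus strand: gatgaaaactggCaacaaaatcagg
Rpl39, spliced transcript, centred on base 371: gatgaaaactggTaacaaaatcagg
Rps19-ps1, chr14:53213793-53213817, plus strand: ctcaaaaagtccAggaagctgaaag
Rps19, spliced transcript, centred on base 232: ctcaaaaagtccGggaagctgaaag

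Gm10774 and Polr2l differ at 1 of 204 aligned bases. Gm10774 stood at 0.0781, 0.0839 and 0.0705 FPKM with DMSO and at 5.00, 8.15 and 8.44 FPKM with stk, a log2 fold change of 2.90. It passed the filter only through the stk libraries. With no filter on low values its adjusted p was 0.0317 (limma). Polr2l, a subunit gene of the RNA polymerases, stood at 20.9, 18.9 and 21.1 against 19.9, 19.0 and 18.8 FPKM. The same pair of levels appeared within single groups elsewhere in the series: Gm10774 was at 0.0740, 14.6 and 0.0735 FPKM in Hepa1-6 with DMSO and at 14.8, 11.2 and 0.0805 FPKM with stk. In CT26 with shLucif it was at 0.0807, 7.64 and 6.45 FPKM. Rpl39-ps fell from 32.8, 34.0 and 31.5 to 20.3, 18.1 and 23.3 FPKM. Rps19-ps1 fell from 3.15, 3.36 and 2.81 to 1.502, 1.55 and 1.63 FPKM. Their log2 fold changes were -0.65 and -0.68, beside -0.48 and -0.34 for Rpl39 and Rps19.

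**Figure D3:**
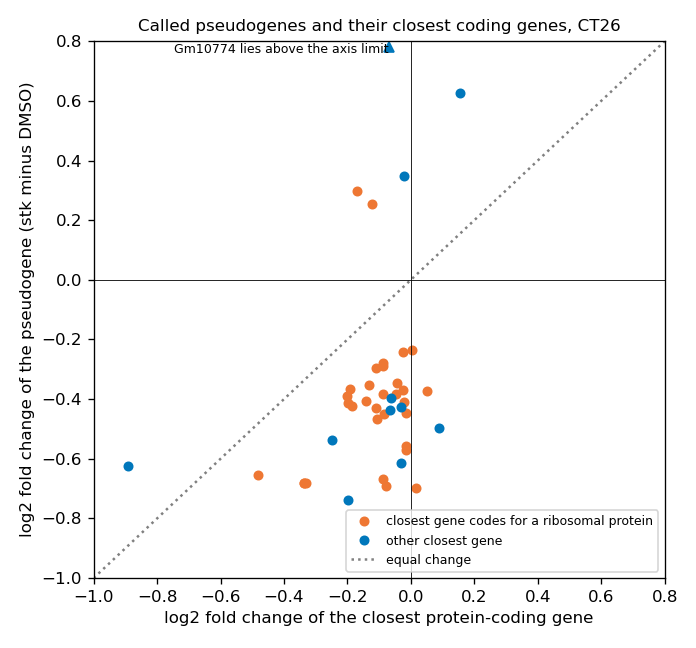
Each point is 1 called pseudogene, with the log2 fold change (stk minus DMSO) of its closest protein-coding gene on the x axis and its own on the y axis; the dotted line marks equal change. Of the 38 that fell, most lie below the dotted line, and Gm10774, at 2.90, lies beyond the axis and is marked by the triangle. The pseudogenes were picked by their calls and the closest genes were not, so distance from the line is no support.

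Non-coding genes gave the other large changes. Gm25894, a small nucleolar RNA gene inside Snhg1 (chr19:8724251-8724325, plus strand), was at 7.96, 4.89 and 8.06 FPKM with DMSO and 0.110, 0.102 and 0.109 FPKM with stk (log2 fold change -2.82). It passed the filter only through the DMSO libraries. With no filter its adjusted p was 0.0317 (limma). Its host Snhg1 had 21.1, 20.8 and 22.5 against 17.9, 17.9 and 17.1 FPKM (adjusted p = 0.0564). The annotated length of Gm25894 is 75 bases, so its FPKM rests on few fragments. Mir6236 fell from 37.4, 28.9 and 28.7 to 13.8, 11.7 and 11.8 FPKM (log2 fold change -1.27, adjusted p = 0.0170). The value belongs to a gene model of 123 bases in total RNA libraries and not to the mature microRNA, which RefSeq gives on GRCm38.p6 at chr9:110281353-110281371, plus strand, shown here with its seed (bases 2 to 8) in capitals.
mmu-miR-6236: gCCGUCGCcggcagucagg

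Bc1, a short rodent RNA transcribed by RNA polymerase III and best known in neurons, rose from 2.07, 3.69 and 2.34 to 12.6, 7.91 and 13.4 FPKM (log2 fold change 1.73, adjusted p = 0.0313). Dnm3os, the host transcript of a microRNA cluster, was at 0.203, 0.0769 and 0.0632 FPKM with DMSO and 1.38, 1.09 and 1.31 FPKM with stk (log2 fold change 1.02). It passed the filter only through the stk libraries, and with no filter its adjusted p was 0.0520 (limma). Of the 6 fits that left out a library, 1 called Bc1 and 3 called Mir6236. Gm25894, Gm10774 and Dnm3os could be tested in 3 of these fits, and were called in 3, 2 and 1 of them. Those 3 fits keep every library of the group where the gene is high, so the calls are no support.

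The enzymes of cholesterol synthesis, the main SREBP2 targets, were lower as a list, although no member was called. Of 21 genes listed, 19 were testable and all 19 had a lower mean with stk. The median log2 fold change was -0.28, beside -0.01 over all tested genes, and in 8 of the 19 the groups did not overlap, beside 12.0% of all tested genes. An unadjusted p under 0.05 was reached by 8. Stk replicate 2 held the lowest of the 6 values in 17 of the 19 genes. Measured from the DMSO mean, the median was -0.10 in stk replicate 1, -0.54 in stk replicate 2 and -0.20 in stk replicate 3. Without stk replicate 2, 17 of the 19 still had a lower mean and the median was -0.16. DMSO replicate 3 was the highest of the control libraries, with a summed level of 354 FPKM beside 324 and 327 FPKM, against 313, 214 and 286 FPKM with stk.

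Along the pathway, Hmgcs1, which makes HMG-CoA, stood at 26.8, 25.1 and 30.4 FPKM with DMSO and 27.1, 17.3 and 23.4 FPKM with stk. Its groups overlapped. Among the mevalonate and isoprenoid enzymes, Idi1 stood at 12.8, 13.4 and 13.7 against 11.6, 7.86 and 11.8 FPKM, and Mvk, Pmvk, Mvd and Fdps overlapped between the groups. Sqle, the epoxidase that commits squalene to sterols, had 24.9, 30.3 and 30.5 against 26.7, 16.1 and 19.9 FPKM (log2 fold change -0.45, adjusted p = 0.312). Cyp51, which removes a methyl group from lanosterol, had 45.9, 46.6 and 49.7 against 40.0, 27.6 and 39.7 FPKM. Dhcr7, the reductase of the last step, came nearest to the threshold, with 4.64, 4.46 and 4.99 against 3.60, 2.90 and 3.05 FPKM (log2 fold change -0.45 ± 0.08, SE, adjusted p = 0.0732).

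**Figure D4:**
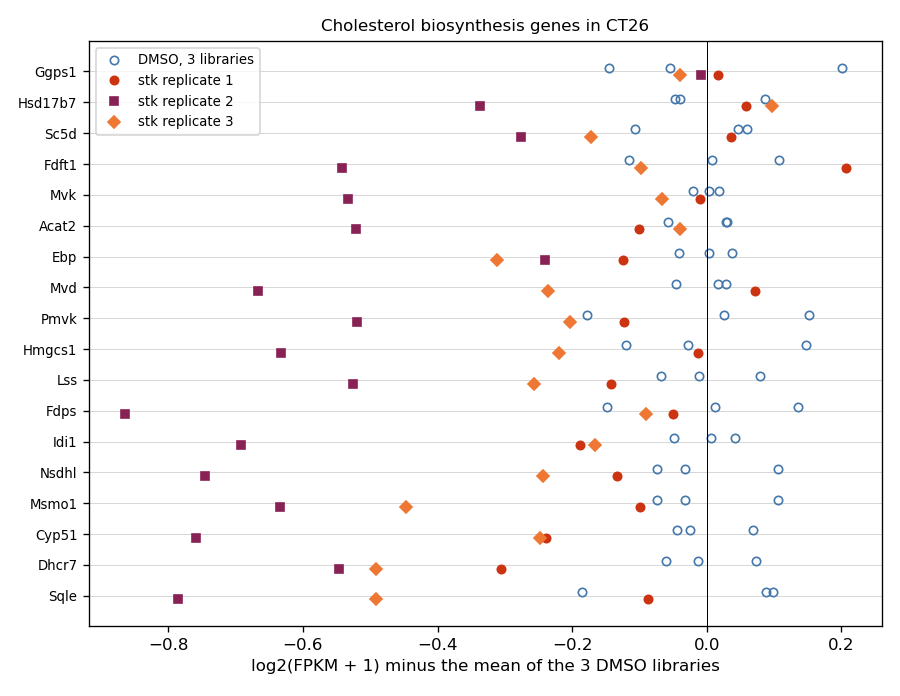
Rows are 18 of the 19 testable cholesterol biosynthesis genes of CT26, and the x axis is log2(FPKM + 1) minus the mean of the 3 DMSO libraries. Open circles are DMSO libraries and the 3 filled symbols are the stk libraries; stk replicate 2 (squares) is the lowest of the 6 values in 16 rows, and stk replicates 1 and 3 lie nearer to 0.

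Sterol elements, the promoter motif bound by SREBP, were searched as TCACNCCAC on both strands in RefSeq promoters on GRCm38.p6, from 250 bases before to 50 after the start. The motif was in 1.24% of 32851 promoters and, among 15 cholesterol synthesis genes with a promoter in the table, in 1, Hmgcs1. The 30 bases around it are shown because Hmgcs1 is a member of the list that was lower, with the motif in capitals, starting 137 bases before the gene's start.
Hmgcs1, chr13:119690204-119690233, plus strand: cgtcaccgtcTCACCCCACttcccaggtcc
A match or its lack describes these windows only.

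Genes of sterol import and its control had smaller differences. Of 15 testable genes 10 had a lower mean, none was called and the median was -0.08, or -0.03 without stk replicate 2. Stard4, a sterol carrier gene, had 16.3, 16.3 and 16.3 against 14.7, 11.9 and 14.2 FPKM (adjusted p = 0.224). Npc1, which exports cholesterol from lysosomes, was the other way, at 3.96, 4.31 and 4.21 against 4.71, 4.67 and 4.64 FPKM (adjusted p = 0.318). Fatty acid synthesis genes had a lower mean in 13 of 17, with Me1 the 1 call and a median of -0.14, or -0.06 without stk replicate 2. Scd1, a desaturase gene, had 66.7, 63.6 and 73.6 against 61.2, 41.0 and 59.5 FPKM (adjusted p = 0.360). Fasn had 46.3, 43.9 and 45.3 against 39.7, 40.2 and 42.9 FPKM (adjusted p = 0.214). Both were lower in every stk library, and Scd1 was lowest in stk replicate 2.

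Genes named by the study's title did not pass the test. Soat1 stood at 12.1, 12.2 and 12.5 FPKM with DMSO and at 12.1, 13.6 and 12.6 FPKM with stk (log2 fold change 0.05, adjusted p = 0.706). Soat2, the second esterifying enzyme, was slightly higher in every stk library, at 12.9, 13.03 and 14.0 against 15.2, 14.3 and 15.04 FPKM (log2 fold change 0.15, adjusted p = 0.252). Gpr132 lay between 0.125 and 0.259 FPKM in the 6 libraries and was not testable. Of the enzymes that make oxysterols, Cyp11a1, which yields 20-hydroxylated intermediates on the way to pregnenolone, was at most 0.0485 FPKM. Ch25h and Cyp7b1 were listed at 0 in all 6 libraries, and Cyp27a1 at 0 in 5. Cyp46a1 was measured, at 1.73, 2.08 and 1.65 against 1.88, 2.48 and 1.28 FPKM. RNA of these cultures cannot tell fewer expressing cells from less RNA per cell.

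Immune genes of the tumour cell showed no call. Of 17 testable genes of MHC class I presentation, 8 had a higher and 9 a lower mean, with a median of -0.01, or 0.03 without stk replicate 2 and 0.03 without DMSO replicate 3. Tapbp, which loads peptides, had 16.5, 17.7 and 16.9 against 23.6, 18.2 and 22.5 FPKM, higher in every stk library (adjusted p = 0.213). B2m, the light chain, had 593, 562 and 592 against 627, 609 and 629 FPKM (adjusted p = 0.246). Of 36 interferon-stimulated genes 27 had a lower mean, at a median of -0.06, but 3 had one without stk replicate 2 (median 0.16) and 7 without DMSO replicate 3 (median 0.05). The direction of that list thus rested on single libraries, and stk replicate 2 held the lowest value in 31 of the 36 genes. Of 10 testable checkpoint ligands, 7 had a higher mean; Pvr had 9.93, 10.1 and 10.4 against 11.2, 11.4 and 11.8 FPKM (adjusted p = 0.186).

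Growth and stress lists moved little. DNA replication genes had a higher mean in 25 of 32 and mitosis genes in 19 of 26, with medians of 0.06 and 0.02 and no call. The replication licensing gene Cdc6 was at 6.43, 6.27 and 6.51 against 7.68, 7.24 and 7.63 FPKM (adjusted p = 0.136). Immediate early genes had a higher mean in 17 of 22 at a median of 0.10. Myc, in that list, was at 26.5, 26.3 and 26.1 against 31.0, 31.3 and 37.2 FPKM, and Zfp36, which speeds mRNA decay, at 2.44, 2.12 and 2.91 against 4.00, 3.25 and 3.49 FPKM (adjusted p = 0.113 and 0.171). ATF4 targets had a higher mean in 17 of 20 at a median of 0.09, while Atf4 itself stood at 213, 241 and 217 against 192, 154 and 156 FPKM (adjusted p = 0.112). Of 25 lysosomal genes 18 had a higher mean, and Grn, the gene of progranulin, was at 31.8, 29.4 and 31.4 against 36.2, 35.5 and 37.0 FPKM (adjusted p = 0.0784). Among 7 testable stem cell markers none was called. Sox9 was at 0.770, 0.987 and 0.906 against 1.72, 1.57 and 1.48 FPKM (adjusted p = 0.0649). Ly6a, the gene of Sca-1, was at 5.54, 5.42 and 7.29 against 4.19, 2.65 and 4.26 FPKM (adjusted p = 0.193). Sox9 was thus higher, and Ly6a lower, in every stk library, and neither passed the test.

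The same compound in Hepa1-6 allowed a test of which responses differed between the lines. The difference was called for 39 of 12822 genes (0.304%), and for 6 of the 85 called in CT26. Me1 stood at 70.4, 68.5 and 71.9 FPKM with DMSO and at 76.4, 74.4 and 78.8 FPKM with stk in Hepa1-6, so that its CT26 response minus the Hepa1-6 response was -0.69 in log2 units (limma, SE 0.05, adjusted p = 0.000705). Adamts1 in Hepa1-6 was at 1.44, 1.303 and 1.12 against 1.47, 1.67 and 1.75 FPKM, a difference between the lines of -0.81 (adjusted p = 0.0281). Trmt61a and Uba3 were level in Hepa1-6, with means of 5.75 and 5.86 FPKM for Trmt61a and 13.6 and 13.7 FPKM for Uba3, and differed by -0.39 and -0.34 (adjusted p = 0.0437 and 0.0281). Dnm3os was listed at 0 in every Hepa1-6 library, and Gm25894 was at means of 10.6 and 8.13 FPKM. Abca1 went in the same direction in both lines: it was at 5.95, 6.42 and 4.99 against 2.83, 3.53 and 3.07 FPKM in Hepa1-6, and the difference was not called (-0.31, adjusted p = 0.344). Nfix in Hepa1-6 was uneven within groups, at 3.45, 5.24 and 1.69 against 5.81, 4.12 and 5.97 FPKM, and the difference was not called (0.69, adjusted p = 0.401).

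Most other genes called in CT26 had the same sign in Hepa1-6, among them all 38 pseudogenes that fell, 20 of the 25 protein-coding genes that fell and 7 of the 8 that rose. Over the 12822 genes of the fit that held both lines, 48.7% had a lower and 49.9% a higher mean with stk in Hepa1-6. Some genes of that fit, such as Dnm3os, were not measured in Hepa1-6. Of the 8 protein-coding genes that rose, every stk library of Hepa1-6 lay above every DMSO library for 2. No share over all genes was taken for that direction. Among the falls, every stk library of Hepa1-6 lay below every DMSO library for 34 of the 38 pseudogenes and 15 of the 25 protein-coding genes. The share over the genes of that fit was 13.7%. That share covers genes of all lengths, and the called pseudogenes of CT26 had a median of 483 bases of annotated exon. In Hepa1-6 the median log2 change was -0.24 for protein-coding genes under 600 bases and 0.04 for those of at least 10000 bases. The part of length was not tested. Rpl22l1 was at means of 22.7 ± 1.11 and 13.3 ± 0.871 FPKM there (SD, n = 3). Ribosomal protein genes had a lower mean in 77 of 79, with a median of -0.17. Cdv3 was the exception among the rises, at 32.0, 32.9 and 16.2 FPKM with DMSO in Hepa1-6 and 16.0, 14.6 and 14.6 FPKM with stk, and 1 DMSO library lay at the level of the stk group. Cholesterol synthesis genes had a lower mean in 14 of 19 in Hepa1-6, with a median of -0.14.

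Knockdown of Soat1 in CT26 gave more calls, 5103 of 11832 genes (43.1%, with 23.4% higher and 19.8% lower), between the mean of the 3 hairpins and shLucif. That fit held 12 libraries and the stk fit 6, so the counts do not compare the breadth of the changes. Soat1 itself was at 19.7, 19.8 and 20.2 FPKM with shLucif and between 2.52 and 3.55 FPKM in the 9 hairpin libraries. Against that background, of the 33 protein-coding genes called with stk, 7 were called in the same and 5 in the opposite direction, and 21 were not called. Abca1 went the opposite way: it was at 3.64 ± 0.241 FPKM with shLucif and at 6.16 ± 0.524, 5.74 ± 0.187 and 6.90 ± 0.499 FPKM with sh1, sh2 and sh3 (SD, n = 3; log2 fold change 0.64, adjusted p = 6.7e-06). Adamts1 and Hist1h4i also rose with the hairpins, by 0.24 and 0.49. Glul and Ikbkg rose as with stk, by 0.37 and 0.63. Me1 was called lower (-0.25, adjusted p = 0.0018), but its level was 22.4 ± 1.21 FPKM with shLucif, 21.6 ± 1.10 and 22.2 ± 0.261 FPKM with sh1 and sh2, and 13.4 ± 1.08 FPKM with sh3. Its level was thus lower with sh3 alone. Nfix was uneven, at 4.00, 4.75 and 1.58 FPKM with sh1, 1.34, 1.52 and 1.51 with sh2 and 7.33, 2.33 and 6.71 with sh3, beside 1.47, 1.62 and 1.63 FPKM with shLucif, and was not called (adjusted p = 0.0959).

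The lists gave these counts with the hairpins, beside 23.4% of all tested genes called higher and 19.8% lower. Cholesterol synthesis genes had 12 of 19 called higher and none lower with the hairpins, at a median of 0.30. Dhcr7 rose by 0.57 there and Mvk by 0.62. Interferon-stimulated genes had 31 of 36 called higher with the hairpins (median 0.52), and MHC class I genes 15 of 17 (median 0.48). Of 79 cytosolic ribosomal protein genes, 5 were called higher and 10 lower, both below the shares over all tested genes, at a median of -0.04. The difference between stk and knockdown was not tested, since the experiments have separate tables, batch labels and durations.

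**Figure D5:**
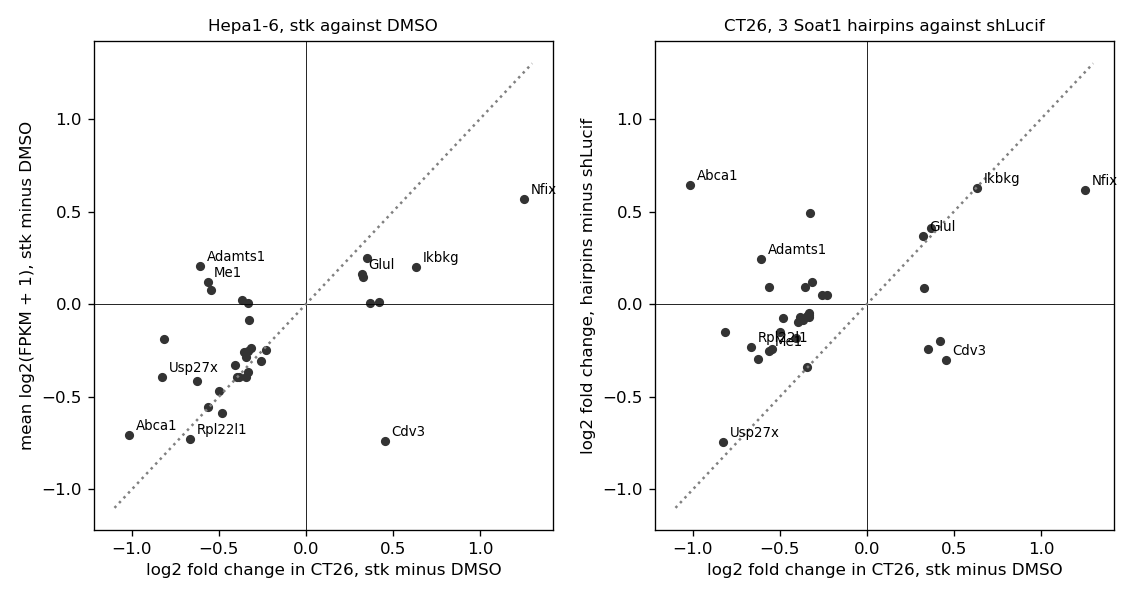
The 33 protein-coding genes called in CT26 with stk are plotted by their log2 fold change there (x axis) against the difference of means in Hepa1-6 with stk (left) and the log2 fold change of the mean of 3 Soat1 hairpins against shLucif in CT26 (right); the dotted lines mark equal change. Abca1 is below 0 on the left and above 0 on the right, and Cdv3 is the gene that is higher in CT26 and lower in Hepa1-6.

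The threshold parted genes of similar values. The 3 called genes with the largest adjusted p were Rpl13-ps6, Gm12918 and Gm10240, at 0.0448, 0.0450 and 0.0458. The nearest genes not called, all at 0.0515, were Ern1, the gene of the stress sensor IRE1, with means of 9.92 and 12.4 FPKM and a log2 change of 0.29, and the pseudogenes Gm4705 and Rpl35a-ps5. Larger changes of single genes went uncalled where 1 or 2 libraries switched level. Eif3j2, named after its values were seen, was at 0, 0 and 26.8 FPKM with DMSO and 23.4, 28.5 and 26.5 FPKM with stk.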

How the data were processed

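Expression was measured by RNA sequencing of total RNA from 6 CT26 libraries, with 6 Hepa1-6 libraries and 12 CT26 hairpin libraries beside them. The authors deposited FPKM, 1 table per experiment; per the submitters' processing notes the build was GRCm38 and the tools listed were HISAT2, STAR, DESeq2 and edgeR, with no role or version. Reads were trimmed with Skewer, per the labels' protocols. The tables hold 21 columns that match no labelled sample (12 and 9), which were not used. Depth is unknown, so no counting interval is given.

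From the deposited FPKM, limma 3.58.1 in R 4.3.3 was run on log2(FPKM + 1), with a mean-variance trend, keeping genes that reached 1 FPKM in 3 or more of the libraries fitted. Tests were two-sided, with Benjamini-Hochberg adjustment over all genes tested and a threshold of 0.05. The 3 fits were stk against DMSO in CT26, the difference of that response from Hepa1-6, and the mean of 3 hairpins against shLucif. With 3 libraries against 3, a two-sided permutation test cannot go below 0.1, so none was used. The pseudocount makes fold changes of low genes smaller. Fits were tested on simulated data. Classes, lengths and overlaps came from GENCODE M21, which held 55154 of the 55335 genes; closest transcripts were found with blastn.

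The members and the 43 gene lists (943 entries, 942 matched) were chosen with earlier results of these data known, so no list count is independent support. Named genes were all called protein-coding genes (values for the 8 largest rises and 12 largest falls), the 5 non-coding genes with the largest change, the genes of the study's title and their kin, and in each list the called members and up to 4 others of smallest p. Chuk, Idh1, Ikbkb, Polr2a, Rpl27 and Scd1 were named after their values were seen. A few genes are not reported here, 1 of them in the plot of cholesterol genes.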

Additional observations from a re-analysis of the deposited data

Results flagged for a closer look

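The response to stk differed between CT26 and Hepa1-6, by limma's test of the difference itself, for 6 of the genes called in CT26. In 5 of them the CT26 response was the lower one. On the log2(FPKM + 1) scale, CT26 minus Hepa1-6 was -0.81 for Adamts1, -0.69 for Me1, -0.39 for Trmt61a and -0.34 for Uba3, with adjusted p of 0.0281, 0.000705, 0.0437 and 0.0281. All 3 stk libraries of CT26 lay below its DMSO libraries for each of these genes. For Me1 and Adamts1 all 3 stk libraries of Hepa1-6 lay above its DMSO libraries. The other 2 genes are non-coding. The difference was -2.48 for Gm25894 (adjusted p = 0.0021), which is 75 bases long and overlaps Snhg1, and 1.02 for Dnm3os, which is listed at 0 in all 6 Hepa1-6 libraries. Dnm3os passed the filter of that fit only through the 3 CT26 libraries with stk, where it is high, so no p is given for it. The cause of these differences was not tested.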

How the results depend on the processing

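The named genes compared under each alternative were at most 40, most of them the called protein-coding genes. No log2 fold change of these changed direction. Where the groups of a gene do not overlap, leaving out 1 library cannot reverse it, so those fits are no support. Other genes did change direction. Of 36 interferon-stimulated genes 27 had a lower mean, and 3 had one without stk replicate 2. Medians of some lists near 0 changed direction too. Without stk replicate 2 that of interferon-stimulated genes was 0.16 and that of MHC class I genes 0.03. Without DMSO replicate 3 they were 0.05 and 0.03. The 85 genes called in CT26 became 14 with no filter on low values, 133 with at least 5 FPKM in 3 libraries, 13 with protein-coding genes only, 50 with the length trend removed, 204 with all labelled libraries of the table in 1 model and 44 with no mean-variance trend. They lay between 85 and 125 with the other pseudocounts, quantile normalization, scaling to a common sum and robust estimation. Leaving out 1 library gave 2 to 92. Of the 33 protein-coding calls, 5 held without the filter, 13 among protein-coding genes only, 24 with length removed, 14 without the trend and 31 with quantile normalization. The genes whose response differed between the lines, 39, became 61 with a pseudocount of 5 and 7 to 28 without 1 library. The hairpin comparison, 5103, stayed between 3824 and 5351 in all of its alternatives, and was 4122 to 5157 without 1 library. With the replicate block the counts were 4, 6 and 5066. The replicate numbers were not shown to pair the CT26 libraries: deviations from the group means correlated by -0.00622, 0.0465 and 0.0484 for the same numbers. Columns of sh1 carry no single number and were left out of the block. The unknown read depth limits short and low genes most, and fits without 1 library assume that the rest vary alike. The cause of these shifts was not tested.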
